A study of Homo sapiens with 6 samples.

Results

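The HIPK kinase family was examined here as 3 genes, HIPK1, HIPK2 and HIPK3, in RNA that came down with the RNA helicase DDX5. Members were the listed genes, and every deposited peak interval whose main summit lay in one of the 3 gene bodies of GENCODE version 44 was taken. This gave 167 intervals of 93184 in the series on chromosomes 1 to 22, X and Y: 53 of 23703 in replicate 1, 60 of 23651 in replicate 2 and 54 of 45830 in replicate 3. A total of 10345 protein-coding genes held an interval in at least 1 list. The genes were chosen by their fold enrichment and replicate support in earlier results of these same lists, so their fold enrichments, interval counts and replicate support are described without a test.

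The DDX5_IP samples were 3 biological replicates, immunoprecipitated from nuclei of RH30 cells with an antibody to DDX5. RH30 is an established line of alveolar rhabdomyosarcoma, and the PAX3-FOXO1 fusion is present in it. The INPUT samples, also 3, were nuclear RNA of the same line taken without an antibody, and their files were not analysed here. No RNA level therefore stands beside a peak, and more RNA of a gene and more DDX5 on each molecule cannot be told apart. All samples come from 1 tumour line. The kit was unstranded, so sense and antisense RNA cannot be told apart either.

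Homeodomain-interacting protein kinases are nuclear serine/threonine kinases of the CMGC group, close to the DYRK kinases. They phosphorylate transcription factors and corepressors and take part in the responses to DNA damage, in WNT signalling and in apoptosis. HIPK2 is best known for phosphorylating p53 after DNA damage and is kept low by the ubiquitin ligases SIAH1 and SIAH2. HIPK1 acts with DAXX and p53, HIPK3 has been tied to FAS and JNK signalling, and exon 2 of HIPK3 is the source of an abundant circular RNA, circHIPK3. DDX5 is a DEAD-box helicase with known roles in transcription, splicing and microRNA processing, and it is a coactivator of p53 and MyoD.

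In GRCh38, HIPK1 (ENSG00000163349.22) lies on the plus strand at chr1:113929324-113977869, HIPK2 (ENSG00000064393.16) on the minus strand at chr7:139561570-139777998, and HIPK3 (ENSG00000110422.12) on the plus strand at chr11:33256672-33357023. Their MANE Select transcripts, the reference transcript for each gene, have coding sequences of nearly one length, 3633, 3597 and 3648 bases. The 3' UTRs differ more: 4357 bases in HIPK1, 11357 in HIPK2 and 3455 in HIPK3, which is 53.1%, 74.1% and 45.4% of the spliced transcript. Introns fill 81.2%, 92.8% and 91.9% of the gene bodies.

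All 3 genes had intervals in every list. Of 20033 annotated protein-coding genes, 25.7% did. HIPK1 had 16, 14 and 16 intervals in replicates 1, 2 and 3. HIPK2 had 22, 24 and 23, and HIPK3 had 15, 22 and 15. The count of HIPK3 was highest in replicate 2, and no gene had most intervals in replicate 3 alone, although that list was the longest. Genes with an interval in every list had a median of 3.67 intervals, averaged over the lists. Many intervals held several summits, and HIPK1 had 31, 24 and 40 summits, HIPK2 45, 45 and 61, and HIPK3 33, 38 and 36. Interval numbers are not per length, and HIPK2 has the longest transcript.

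The fold enrichment is the authors' value for a summit over the peak caller's background, and a gene's best summit in a list is that of highest −log10 q. HIPK3 had a best fold enrichment of 9.43 in replicate 1, 4.79 in replicate 2 and 9.11 in replicate 3, and its mean was 7.78 ± 2.59 (SD, n = 3). HIPK2 had 5.13, 4.44 and 5.33, a mean of 4.97 ± 0.466 (SD, n = 3). HIPK1 had 3.26, 2.597 and 4.93, a mean of 3.59 ± 1.20 (SD, n = 3). HIPK3 was highest, HIPK2 next and HIPK1 lowest within each of the 3 lists. Across lists the neighbours overlapped: replicate 2 of HIPK3 lay within the range of HIPK2, and replicate 3 of HIPK1 did too. Over 5155 protein-coding genes in every list, the median of this mean was 3.65, with quartiles of 3.03 and 4.49. HIPK3 ranked 62nd, HIPK2 816th and HIPK1 2700th among them by mean best fold. By the mean percentile of the best −log10 q they ranked 11th, 22nd and 426th.

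The 3 genes ranked higher by how much of their transcripts the intervals covered than by fold enrichment. Intervals covered 94.3%, 84.4% and 97.0% of the spliced HIPK3 transcript in replicates 1, 2 and 3. They covered 62.8%, 55.5% and 95.0% of HIPK1 and 61.2%, 56.6% and 85.2% of HIPK2. Replicate 2 was lowest and replicate 3 highest for every gene. The means were 91.9 ± 6.67% for HIPK3, 71.1 ± 20.99% for HIPK1 and 67.6 ± 15.4% for HIPK2 (SD, n = 3), against a median of 15.96% over 4895 genes in every list that have a MANE Select transcript. HIPK3 ranked 1st of these genes, HIPK1 47th and HIPK2 64th. The next genes after HIPK3 were UCP2, a mitochondrial carrier, at 91.5%, and MSN, which encodes the membrane-cytoskeleton linker moesin, at 90.4%. UCP2 has a spliced transcript of 1644 bases, whereas that of HIPK3 has 7614. The difference between HIPK3 and these genes is smaller than the spread of HIPK3 between lists.

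**Figure D1:**
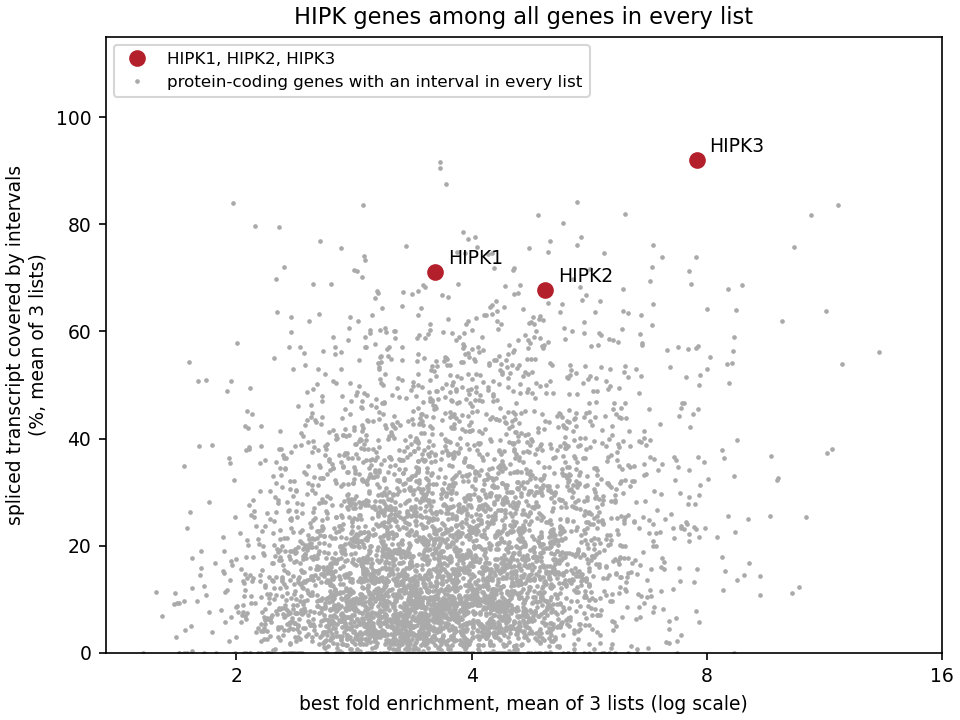
Percent of the spliced MANE Select transcript covered by intervals (vertical axis) against best fold enrichment (horizontal axis, log scale), each as the mean of the 3 lists. Red points are the HIPK genes and grey points the other protein-coding genes with an interval in every list; HIPK3 stands at 91.9% and 7.78, HIPK1 at 71.1% and 3.59, and HIPK2 at 67.6% and 4.97.

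Coverage was spread over both coding sequence and 3' UTR. In HIPK3, 98.2%, 90.3% and 98.3% of coding bases lay in intervals, and 99.1%, 87.8% and 99.2% of the 3' UTR. In HIPK1 the values were 71.1%, 62.6% and 97.3% of coding bases and 58.9%, 52.3% and 97.6% of the 3' UTR. In HIPK2 they were 81.0%, 69.0% and 89.9% of coding bases and 56.9%, 54.5% and 85.6% of the 3' UTR. Among 1492 genes with a 3' UTR of at least 3000 bases, the 3' UTR coverage of HIPK3 (mean 95.4%) ranked 1st, that of HIPK1 (69.6%) 27th and that of HIPK2 (65.7%) 39th, against a median of 12.4%. The 5' UTRs were covered far less, with 0% in every list for HIPK1 and 0%, 0% and 27.5% for HIPK2. HIPK3 had 34.1%, 18.8% and 73.6%. HIPK1 had 1 further summit in replicate 3, at a fold of 4.27, in a 5' UTR exon that belongs to other HIPK1 transcripts than the MANE Select one. The 5' UTR summit of HIPK2 in replicate 3 had the same fold and p, which 10 or more summits of that list share.

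**Figure D2:**
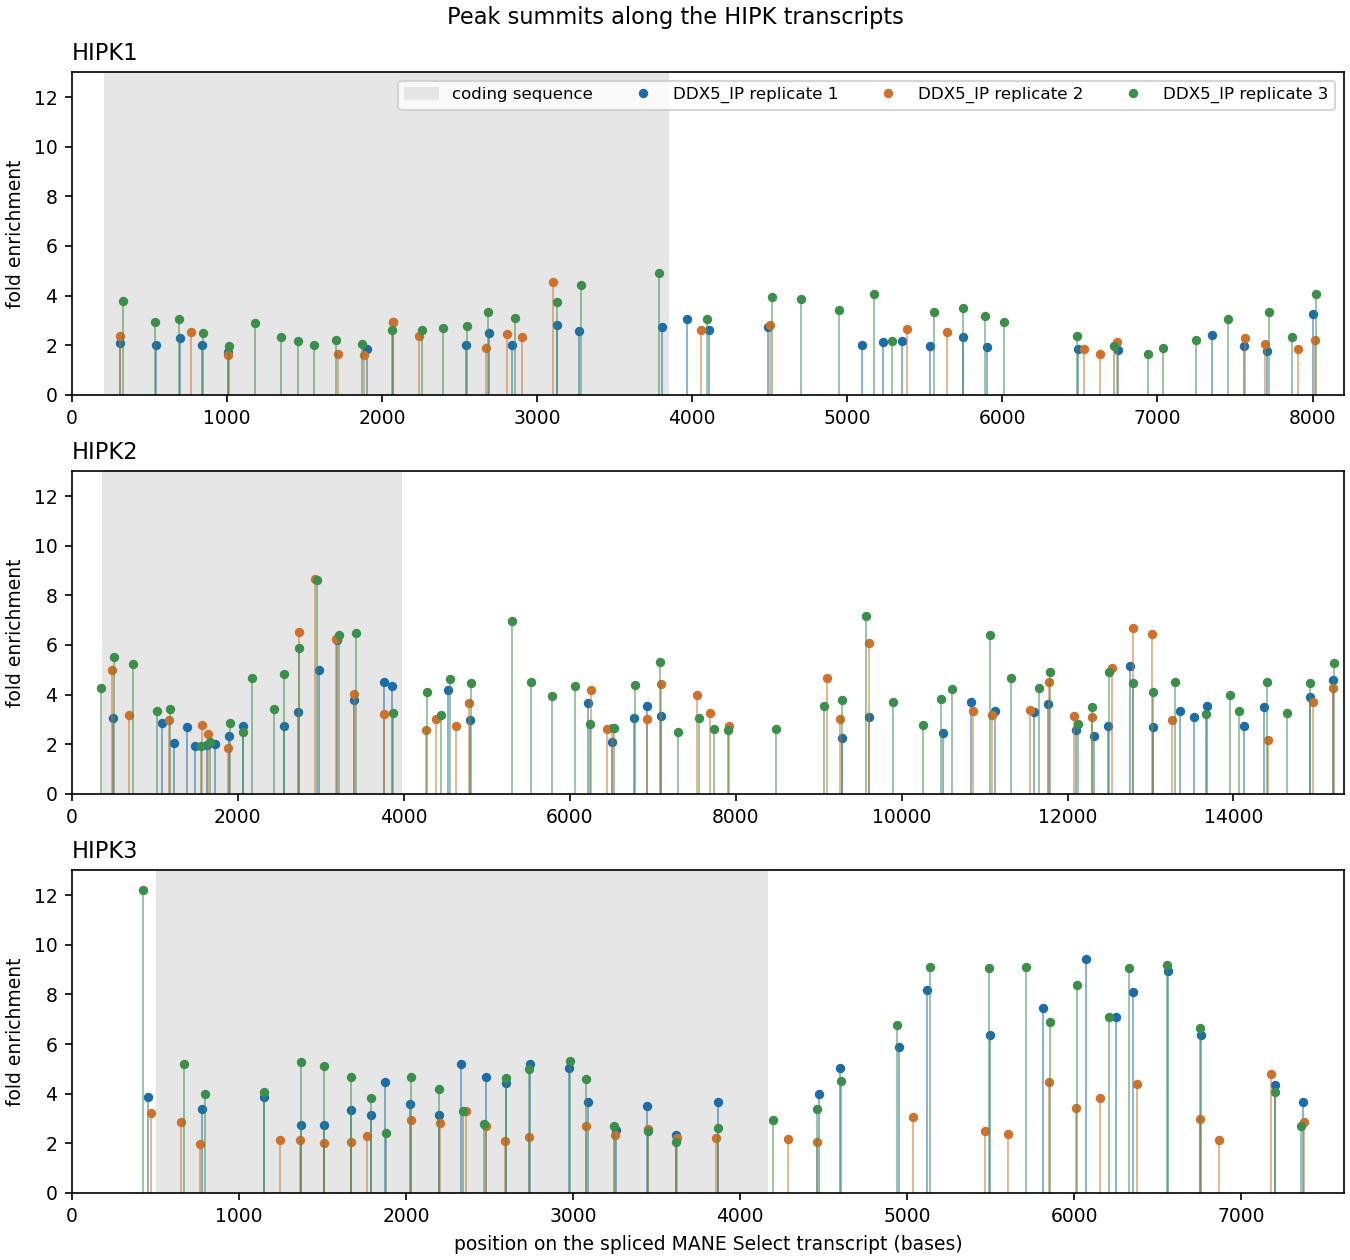
Fold enrichment (vertical axis) of each exonic summit along the spliced MANE Select transcript in bases (horizontal axis) for HIPK1, HIPK2 and HIPK3, with 1 colour per DDX5_IP replicate and coding sequence shaded grey. Summits run along all 3 transcripts, and the highest fold is 12.2, in exon 1 of HIPK3 in replicate 3. Folds over 8 also lie in the 3' UTR of HIPK3 in replicates 1 and 3 and in coding exon 12 of HIPK2 in replicates 2 and 3.

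HIPK3 had its highest −log10 q in the last exon in every list. Exon 17 holds the end of the coding sequence and the whole 3' UTR, and a single interval covered nearly all of it in replicate 1 (chr11:33353052-33356991) and in replicate 3 (chr11:33353062-33356996). The 3' UTR held 13, 13 and 15 summits with median fold enrichments of 6.37, 2.97 and 6.88. The coding sequence held 19, 18 and 20 summits with medians of 3.58, 2.27 and 4.12. The 3' UTR median was the higher one in each list.

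Along the HIPK3 3' UTR the median fold was highest in the middle in every list, while the single highest fold lay there in replicate 1 alone. Each 3' UTR was split into 3 sections of equal length. In replicate 1 the median fold of HIPK3 was 5.46 in the section after the stop codon, 7.45 in the middle and 5.35 in the last. Replicate 2 had 2.16, 3.62 and 2.90, and replicate 3 had 4.50, 8.73 and 5.36. The middle section had the highest median in every list. Over all genes with a 3' UTR of at least 3000 bases, the medians were 2.40, 2.46 and 2.52 in replicate 1, and the other lists were about as level, with 2.72, 2.72 and 2.75 in replicate 2 and 2.59, 2.602 and 2.61 in replicate 3. The single highest fold lay 1914 bases after the stop codon in replicate 1 (9.43), 3021 bases in replicate 2 (4.79) and 2399 bases in replicate 3 (9.17), so it lay in the middle section in replicate 1 and in the last section in replicates 2 and 3. In replicate 3 the highest folds of the 3 sections were nearly level, at 9.09, 9.11 and 9.17. A section of HIPK3 held 3 to 6 summits, while the medians over all genes pool the summits of many genes. How many single genes have 1 section highest by median in every list was not counted. A total of 1137 genes with a 3' UTR of at least 3000 bases had a summit in it in every list. Their single highest fold lay in the first section in all lists in 187, in the middle in 78 and in the last in 107.

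**Figure D3:**
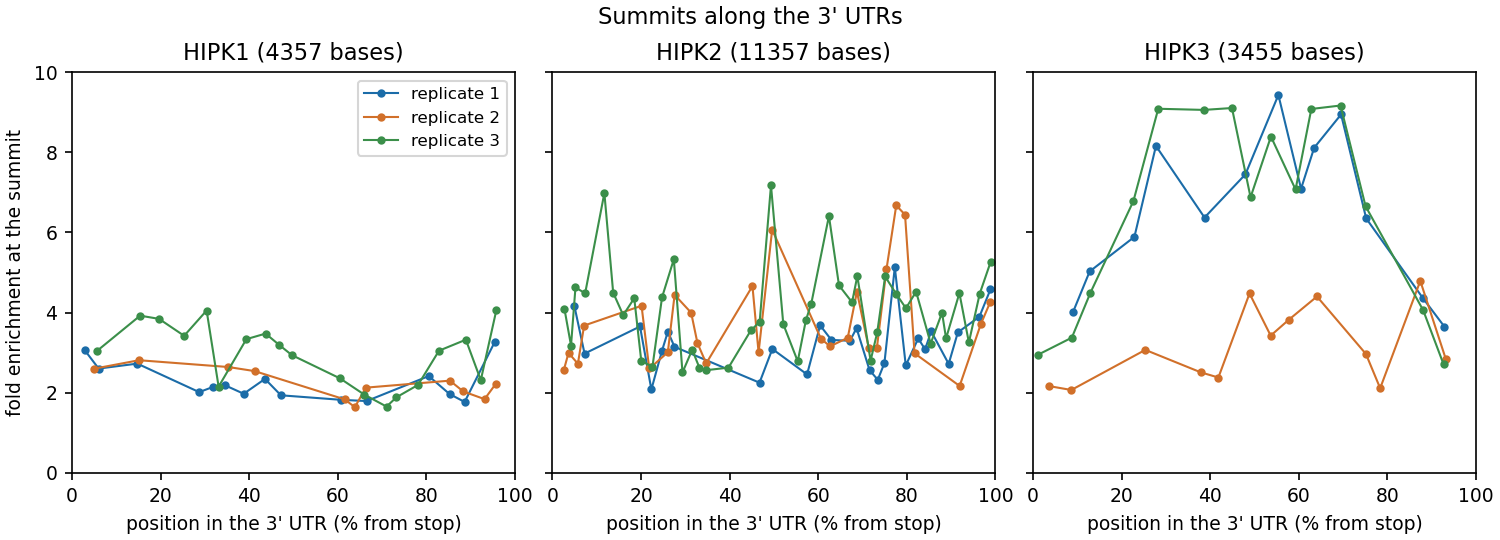
Fold enrichment (vertical axis) at each summit against its position in the 3' UTR, in percent from the stop codon (horizontal axis), for HIPK1, HIPK2 and HIPK3, with 1 line per replicate. HIPK3 is highest by median fold in its middle section in each list, at 7.45, 3.62 and 8.73, and replicate 2 stays below 5 throughout.

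Summits of different lists at the same bases were gathered as recurring sites, meaning 1 summit of each list, all within 25 bp. HIPK3 had 18 such sites, 4 of them in the 3' UTR. Both sites near the 3' end of the transcript are shown here since, of those 4, they had the smallest SD of the fold over the lists and the highest −log10 q that every list reached. They lie at chr11:33356585-33356614, 88.1% along the 3' UTR, and chr11:33356764-33356793, 92.9% along it. Each is a 30-base window 5′ to 3′ on the transcript strand, from GENCODE transcripts, and capitals run from the lowest to the highest of the 3 summits.
HIPK3 3' UTR at 88.1%: atttTAAACTTGGACTGTGTTAAGTAAaag
HIPK3 3' UTR at 92.9%: tgctacACTAGTTTGCCATGTAGCAattgc
At 88.1% the folds were 4.35, 4.79 and 4.06 in replicates 1, 2 and 3, with a mean of 4.40 ± 0.366 (SD, n = 3). At 92.9% they were 3.65, 2.84 and 2.71. The first of these sites is also the best summit of HIPK3 in replicate 2.

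The first exon of HIPK3, which is 5' UTR up to the start of coding in exon 2, had a summit in each list. Its fold enrichment was 3.88 in replicate 1, 3.21 in replicate 2 and 12.2 in replicate 3. In replicates 1 and 2, though not in replicate 3, its fold and p were the same as at 10 or more summits of the list. The value in replicate 3 was the highest of all HIPK summits, and the other lists stayed below 4. The mean of 6.43 ± 5.01 (SD, n = 3) therefore rests on 1 list, and without replicate 3 both values lie under the mean best fold of HIPK3. Exon 2, of 1099 bases, held 4, 5 and 5 summits, with highest folds of 3.85, 2.84 and 5.29. These lists do not separate linear from circular RNA, so no value can be given for circHIPK3.

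HIPK2 had its highest fold of each list in coding exon 12 or 13. Exon 12 (chr7:139596717-139596998) had a fold enrichment of 4.99, 8.66 and 8.61 in replicates 1, 2 and 3. Exon 13 (chr7:139583817-139584064) had 6.20, 6.25 and 6.38, a mean of 6.28 ± 0.0937 (SD, n = 3). Exon 13 was nearly equal in all lists, whereas replicate 1 stood apart in exon 12. In replicate 2 the fold and the p of each of these 2 exons were the same as at 10 or more summits of the list. That was so for 64.9% of all intervals of replicate 2. Coding exons 3, 4 and 6 were lower, with means of 2.22 ± 0.495, 2.17 ± 0.214 and 2.33 ± 0.502 (SD, n = 3). No list of these 3 exons reached the lowest value of exon 12 or 13. The large coding exon 2 was not low, with 3.06, 4.99 and 5.53, a mean of 4.53 ± 1.2996 (SD, n = 3).

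The long 3' UTR of HIPK2 held most of its summits, 57.8%, 62.2% and 67.2% in replicates 1, 2 and 3, and 26, 28 and 41 by number. Their median fold enrichments were 3.22, 3.29 and 4.09, against 2.78, 3.21 and 4.04 for its coding summits. The difference between the features was below 0.5 in each list. The highest folds of the 3' UTR were 5.13 at 77.3% of its length in replicate 1, 6.68 at 77.6% in replicate 2 and 7.17 at 49.3% in replicate 3. A summit near the middle was also high in replicate 2, at 6.07 and 49.6%. By section, the last part had the highest median in each list, at 3.33, 3.99 and 4.26, against 3.15, 3.01 and 4.09 in the section after the stop codon. In replicates 1 and 3 these medians were within 0.2 of each other.

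Of 8 recurring sites in HIPK2, 5 lay in the 3' UTR. The pair printed here had the highest of the least −log10 q over the lists, and they lie far apart, at chr7:139569791-139569820 and at chr7:139561681-139561710 on the minus strand. The second of them ends close to the end of the transcript. Windows and capitals are as for HIPK3.
HIPK2 3' UTR at 27.5%: ttaaaCTTATTCTCTCTGTGAGTATAtaag
HIPK2 3' UTR at 98.9%: ctttttgatcatTTTTTCGGtctccgaggt
At 27.5% the fold enrichments were 3.15, 4.44 and 5.33 in replicates 1, 2 and 3. At 98.9% they were 4.58, 4.27 and 5.27, a mean of 4.71 ± 0.509 (SD, n = 3). The 3 summits at the end of the transcript lay within 7 bp of each other.

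HIPK1 was the weakest member. Its median fold over all summits was 2.14, 2.32 and 2.94 in replicates 1, 2 and 3. Coding summits had medians of 2.09, 2.37 and 2.73, and 3' UTR summits had 2.14, 2.22 and 3.05, so neither feature was higher in every list. By section of the 3' UTR, the part after the stop codon had the highest median fold in each list, at 2.603, 2.70 and 3.63, against 2.19, 2.13 and 2.31 in the last part. The 3 genes thus differed in which section was highest, with 2 to 15 summits in a section. The best summit of HIPK1 lay 4157 bases after the stop codon in replicate 1 and 213 bases after it in replicate 2. In replicate 3 it lay in the coding part of exon 16, which also holds the 3' UTR, so it changed place between lists. In replicate 1 a summit 124 bases after the stop codon came close to the best, at a −log10 q of 17.1 against 17.4. The highest fold of replicate 2 was 4.53 in exon 14, where replicates 1 and 3 had 2.79 and 3.74. The fold and the p of that replicate 2 summit were the same as at 10 or more summits of the list.

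Recurring sites numbered 7 in HIPK1, of which 3 lay in the 3' UTR. The windows shown have the highest −log10 q that all lists reached, and they lie at chr1:113976385-113976414 and chr1:113977663-113977692.
HIPK1 3' UTR at 66.4%: tttttGTTCCTTGTCTTTTTTCTGTAAggg
HIPK1 3' UTR at 95.7%: gtgtaaAACATAGTTTATCTTTGGATtcaa
At 66.4% the fold enrichments were 1.79, 2.13 and 1.95 in replicates 1, 2 and 3. At 95.7% they were 3.26, 2.22 and 4.07, a mean of 3.18 ± 0.927 (SD, n = 3). All 3 genes had a recurring site in the last 12% of the 3' UTR. That limit was set after the sites were seen, and how many other genes have such a site was not counted.

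Replicate support differed more between the paralogues than their interval numbers did. Intervals that shared at least 1 bp across lists were merged into regions. HIPK3 had 18 regions, with 15 in all lists and 3 in replicate 2 alone. HIPK2 had 24 regions, with 15 in all lists, 2 in a pair of lists and 7 in 1 list. HIPK1 had 16 regions, with 7 in all lists, 5 in a pair and 4 in replicate 3 alone. The shares found in all lists were 83.3% for HIPK3, 62.5% for HIPK2 and 43.8% for HIPK1, against 13.6% of 60424 regions in the whole series. Wide intervals meet those of another list more easily than narrow ones.

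The share of exonic summits with a summit of both other lists within 25 bp does not use interval width, though it does depend on how densely summits lie. In HIPK3 it was 60.6%, 56.3% and 55.6% of summits in replicates 1, 2 and 3. In HIPK1 it was 25%, 40.9% and 17.9%, and in HIPK2 28.6%, 20.5% and 13.8%. HIPK3 was above both paralogues in each list. Over all genes in every list the share was 14.3%, 19.1% and 8.17% in replicates 1, 2 and 3. HIPK2 in replicate 2 was close to the share of that list. Summed over lists, 58 of 101 exonic summits recurred in HIPK3, 23 of 89 in HIPK1 and 28 of 139 in HIPK2, against 12.2% of 84682 exonic summits of all genes in every list. The median spread of a site was 8.5 bp in HIPK3, 21 bp in HIPK1 and 22 bp in HIPK2.

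Exon by exon, 15 of 17 exons of HIPK3 held a summit in all 3 lists, 9 of 15 exons of HIPK2 and 7 of 16 exons of HIPK1. Exon 1 of HIPK1 (209 bases), exon 5 of HIPK2 (87 bases) and exon 12 of HIPK3 (63 bases) held a summit in no list. A summit just outside an exon does not count here, even if its interval overlaps the exon. In HIPK2 such a summit lay 1 base from exon 8 in replicate 1 and 5 bases from exon 7 in replicate 2. Others lay 33 bases from exon 3 of HIPK1 in replicate 1 and 24 bases from exon 5 of HIPK3 in replicate 2. Exons 3 to 6 have the same lengths in all 3 genes, 124, 120, 87 and 185 bases, so they can be set side by side. HIPK3 had a summit in all lists in 3 of these exons and in a pair of lists in exon 5. HIPK2 also had all lists in exons 3, 4 and 6. HIPK1 had summits in replicate 3 alone in exons 3, 4 and 5, and in replicates 2 and 3 in exon 6. The large exon 2, of 1078, 1084 and 1099 bases in HIPK1, HIPK2 and HIPK3, held summits of every list in each gene.

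**Figure D4:**
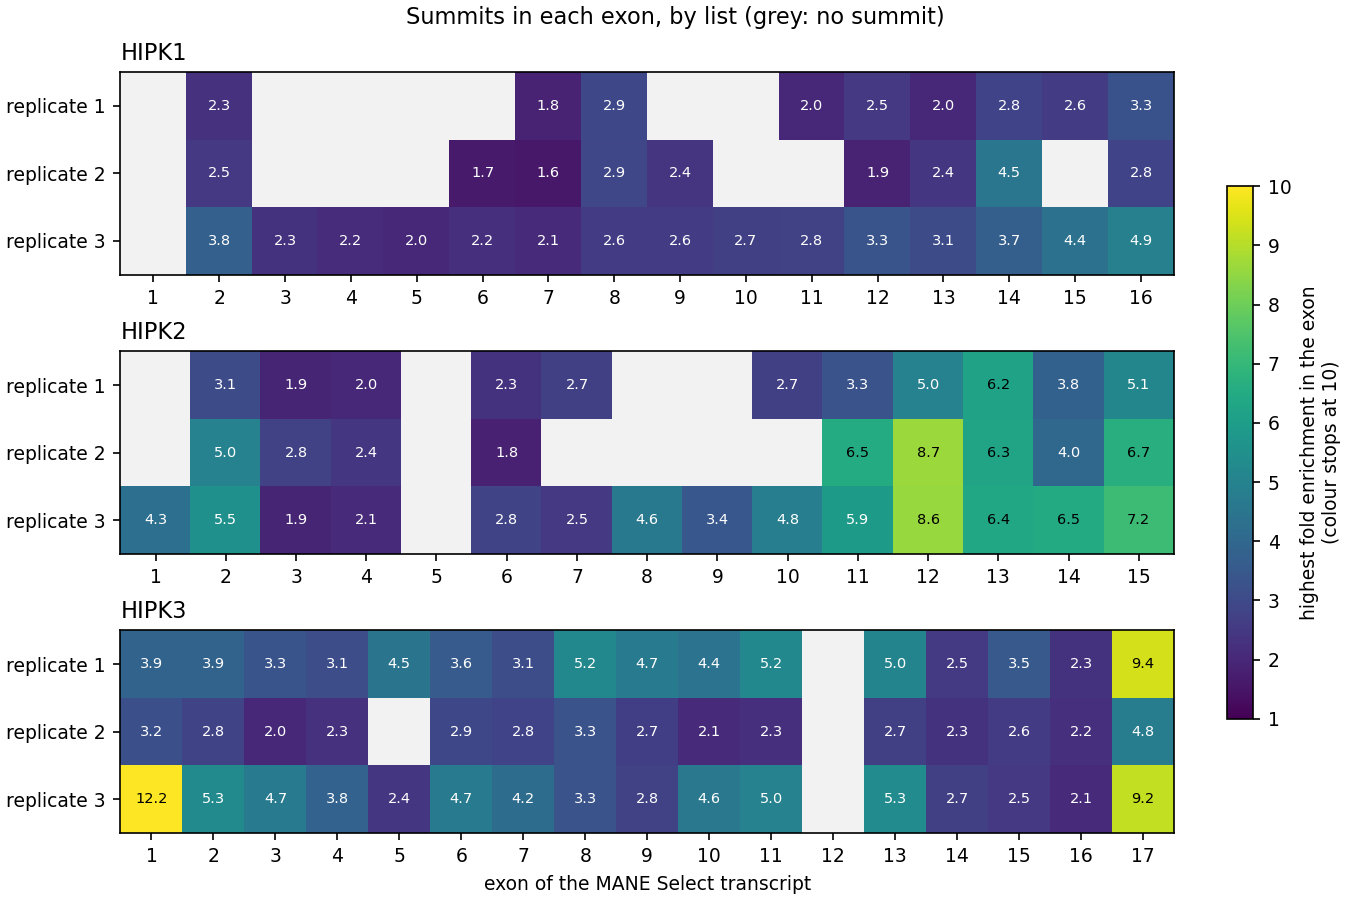
Highest fold enrichment in each exon (columns, numbered along the MANE Select transcript) in each DDX5_IP replicate (rows) for HIPK1, HIPK2 and HIPK3; grey cells hold no summit and the colour scale stops at 10. HIPK3 has summits of every list in 15 of 17 exons, HIPK2 in 9 of 15 and HIPK1 in 7 of 16, with the empty cells of HIPK1 mostly in replicates 1 and 2.

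Intervals often followed exon boundaries. In HIPK2, 1 interval spanned exon 5 in each list, with a pair of summits 10 to 29 bases outside it, 1 on either side. Across the family, 135 summits lay in internal exons, those between the first and the last, at a median of 49.8% of exon length, and 118 of them lay between 20% and 80%. Over all genes in every list the median was 49.1%, with quartiles of 33.3% and 63.4%, and 73.95% of 36671 summits lay in that range. Intervals that spanned an internal exon overhung it by a median of 32 to 60.5 bp, depending on gene and list. In HIPK3 intervals spanned 13, 12 and 14 of 15 internal exons in replicates 1, 2 and 3, in HIPK1 6, 5 and 12 of 14, and in HIPK2 6, 4 and 11 of 13.

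Intronic signal was sparse given the size of the introns. The 3 genes had 23 intronic summits in 18 intervals. Of these, 16 summits were in intervals that also overlapped an exon, and they lay 1 to 48 bases from it. The other 7, in 6 intervals, lay 10723 to 37616 bases from the nearest exon of the MANE Select transcript. None of those was in replicate 1, 5 intervals were in replicate 2 and 1 in replicate 3, and each was found in 1 list only. In all of them the fold and the p were both the same as at 10 or more summits of the list, which was so for 60.2%, 64.9% and 72.9% of all intervals in replicates 1, 2 and 3. Over genes with an interval in every list, 34.2% of intervals were intronic in replicate 2, against 17.6% in replicate 1 and 20.4% in replicate 3. Those shares count an interval at its main summit. Counted so, HIPK1 had 1, 0 and 0 intronic intervals of 16, 14 and 16 in replicates 1, 2 and 3. HIPK2 had 2, 4 and 2 of 22, 24 and 23, and HIPK3 had 0, 4 and 0 of 15, 22 and 15.

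Coding sequences of the paralogues were aligned to ask whether recurring sites fell at the same place in the kinases. Identity over aligned bases was 67.8% between HIPK1 and HIPK2, 57.6% between HIPK1 and HIPK3 and 59.7% between HIPK2 and HIPK3. The longest identical runs were 23, 21 and 18 bases, and no 50-base stretch was shared between any pair of coding sequences, nor any 30-base stretch between their 3' UTRs. Of 4, 3 and 14 coding sites in HIPK1, HIPK2 and HIPK3, 1 in each gene fell at a shared place, within 14 alignment columns of one another. These sites lie in exon 12 of HIPK1 (chr1:113967837-113967866), exon 11 of HIPK2 (chr7:139600482-139600511) and exon 11 of HIPK3 (chr11:33347921-33347950). The windows have 30 bases, 5′ to 3′ on the coding strand, with capitals from the lowest to the highest of the 3 summits.
HIPK1 exon 12: catTGGCCACTGCTCAGCCTCTGAATGTtg
HIPK2 exon 11: cagcccttAAATGTGGGTGTGGCccacgtg
HIPK3 exon 11: tttatctgcccctcAGCCagttagtgtggg
HIPK2 had fold enrichments of 3.31, 6.52 and 5.89 here in replicates 1, 2 and 3, HIPK3 had 5.19, 2.27 and 5.00, and HIPK1 had 2.48, 1.87 and 3.34. HIPK1 was lowest in every list, and the order of HIPK2 and HIPK3 changed between lists.

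A second place was shared by HIPK2 and HIPK3 in exon 6, within 2 alignment columns (chr7:139626693-139626722 and chr11:33339422-33339451).
HIPK2 exon 6: ttcaTTGACCTGTTGAAGAAGATGCTGAcc
HIPK3 exon 6: ctgttgaagaaAATGTTGCTGattgatgca
HIPK2 had folds of 2.33, 1.83 and 2.83 in replicates 1, 2 and 3, and HIPK3 had 3.58, 2.95 and 4.67, higher in each list. HIPK1 had a summit in this exon in replicates 2 and 3. The exons at both shared places are 162 to 185 bases long, so sites in aligned exons have little room to lie apart.

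Base composition at the summits differed between the genes. The 3' UTR of HIPK3 has 31.1% G and C, that of HIPK1 37.4% and that of HIPK2 46.6%. Windows of 50 bases on each side of 3' UTR summits had medians of 31.7%, 36.6% and 42.6%, against 44.6% over all genes in every list. Coding windows had medians of 46.5% in HIPK3, 49.5% in HIPK1 and 55.4% in HIPK2, against 51.5%. A G-run pattern, 4 stretches of 3 or more G with 1 to 7 bases between them on either strand, was found in 1 of 95 windows of the HIPK2 3' UTR and in no other exonic window of the coding sequence or 3' UTR of the 3 genes. The pattern had 0 matches in the whole coding sequence and 3' UTR of HIPK1 and HIPK3. In HIPK2 it had 1 match in the coding sequence and 6 in the 3' UTR. Its absence from the windows of HIPK1 and HIPK3 therefore says nothing about where their summits lie. Over all genes the pattern was found in 0.692% of coding and 2.25% of 3' UTR windows.

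The nearest relatives of the family had fewer intervals, at most 9 in a list. Of 6 relatives, 3 had an interval in every list (50.0%, against 25.7% of protein-coding genes): DYRK1A, a dosage-sensitive kinase of neural development, at a mean best fold of 3.65 ± 1.54, DYRK3, which dissolves condensates, at 3.09 ± 0.571, and DYRK2, a p53 kinase, at 2.34 ± 0.387 (SD, n = 3). All 3 means lay below those of HIPK2 and HIPK3, and that of DYRK1A lay slightly above that of HIPK1. DYRK4 had 4 intervals in replicate 3 alone, at a best fold of 4.15. HIPK4, the remaining HIPK gene, which lacks the homeodomain-interacting region, and DYRK1B had no interval in any list. Of 34 partners, regulators and substrates of HIPK kinases, 23 had an interval in every list (67.6%), with a median mean best fold of 4.16, against 3.65 over all genes in every list.

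Among those partners the highest by −log10 q percentile were TCF7L1, a WNT pathway repressor, at 5.58 ± 1.83, the acetyltransferase CREBBP at 6.61 ± 1.44, its paralogue EP300 at 4.18 ± 1.01 and the methyl-CpG-binding protein ZBTB4 at 5.79 ± 2.67 (mean best fold, SD, n = 3). Among rhabdomyosarcoma and myogenic markers, 11 of 12 had an interval in every list (91.7%, against 25.7% of protein-coding genes). Among markers of blood, epithelium, liver and endothelium, 0 of 9 did. The exceptions were TFAP2B among the myogenic markers, with no interval, and PECAM1 among the others, with an interval in replicates 1 and 3. Mean −log10 q percentiles of those 11 ran from 38.3 (CHRNA1) to 98.2 (IGF2). The markers were chosen with earlier results known, so these counts are a description.

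The genes whose pattern was most like each member were taken by distance over 9 values, 3 in each list: the percentile of the best −log10 q, the number of intervals on the log2 scale and the percent of intervals in the 3' UTR. For HIPK3 they were PRRC2A, NCOA6 and ATXN2L, at distances of 0.486, 0.503 and 0.529. For HIPK2 they were PTPN14, CUX1 and FOXN3, at 0.581, 0.673 and 0.725. For HIPK1 they included USP22 and RC3H2, at 0.748 and 0.799. The median distance to all genes was 5.32, 5.46 and 4.69 for HIPK3, HIPK2 and HIPK1. The paralogues were not each other's nearest, though they were closer to each other than the median gene. Among 5155 genes in every list, HIPK2 ranked 119th and HIPK1 112th by closeness to HIPK3, at distances of 1.552 and 1.515. By closeness to HIPK2, HIPK1 ranked 61st and HIPK3 72nd, and by closeness to HIPK1, HIPK3 ranked 149th and HIPK2 151st.

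Some of these intervals touch other records. The 1 HIPK2 summit in exon 1, in replicate 3 at a fold of 4.27, also lies in the body of TBXAS1, which runs on the opposite strand, and the kit cannot say which of them it came from. The start of HIPK1-AS1 and exon 1 of HIPK1 overlap too, but no summit lay in the overlap.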

How the data were processed

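Per the labels' protocols, RNA was immunoprecipitated with DDX5 from RH30 nuclear extracts and made into unstranded libraries. Per the submitters' processing notes, STAR 2.6.1d, MACS2 2.2.7.1, SAMtools 1.10, cutadapt 1.11, FastQC 0.11.8 and bcl2fastq 2.20 were used with GRCh38/hg38. Parameters and the control of the peak calls are not given in the sources used here. The authors deposited 1 peak list per DDX5_IP sample. The deposited fold enrichment is a ratio over the caller's background, and the deposited p-value and q-value are −log10 values. The deposited score was not used. The sequencing depth is unknown, so no counting interval is given, and each value is the authors' own for that peak.

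An interval with several summits was counted once, at the summit with the highest −log10 q. A summit was called coding first, then 5' UTR, 3' UTR, other exon or intron, over all transcripts of GENCODE version 44, and transcript positions used the MANE Select transcript. Values were set out by list, and SDs are over the 3 lists. Coding sequences were aligned with MAFFT 7.526, and tables were made with pandas 2.3.3 in Python 3.11.15. The calculations were tested on simulated data. The members and the gene lists were chosen with earlier results of these data known. Alternatives were a stricter q, a minimum fold, other counting units and overlaps, equal list lengths and each list left out. Counting all summits for the 3' UTR share, leaving out shared pairs of fold and p, and taking coding summits alone were added after seeing the data. Named genes are the 3 members, up to 4 genes per list by mean percentile of the best −log10 q, and the 3 nearest genes to each member. Some genes that this rule took are not reported here. UCP2, MSN and TBXAS1 were named after their values were seen.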

Additional observations from a re-analysis of the deposited data

How the results depend on the processing

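No paired analysis was possible because the INPUT samples that share replicate numbers with the DDX5_IP samples have no file here. Of 104 recalculated values over 15 results, 85 stayed within 1.5 times (counts) or 1 SD (other values), and 19 did not. All 45 that left out 1 list stayed. A mean of 3 lists cannot move by 1 SD when 1 is left out, so for values judged by SD this was fixed in advance. A minimum fold of 4 left 1.33, 10 and 5.33 intervals per list in HIPK1, HIPK2 and HIPK3, against 15.3, 23 and 17.3, and 0, 4 and 1 regions in all lists, against 7, 15 and 15. It raised the percent of intervals in the 3' UTR of HIPK3 to 26.4%, against 8.99%. A q under 1e-05 left 4 HIPK1 regions in all lists, and leaving out shared pairs of fold and p left 8 HIPK2 regions. Counting every summit gave 31.7, 50.3 and 35.7 per list. The 3' UTR held 39.1% of HIPK2 intervals but 62.4% of its summits and 65.0% of its covered bases, and in HIPK3 38.4% of summits and 38.2% of covered bases. In HIPK3, 1 interval covered nearly the whole last exon in replicates 1 and 3, which counts once among intervals. HIPK1 had such an interval in replicate 3, counted as coding by its main summit. The 3' UTR thus held 0% of HIPK1 intervals in replicate 3, against 43.8% and 35.7% in replicates 1 and 2. The mean best fold of HIPK2 was 7.82 by the highest fold and 7.42 in coding sequence alone, and that of HIPK3 was 3.86 in coding sequence alone. With 1 list left out, the mean best fold ranged over 2.93 to 4.09 in HIPK1, 4.79 to 5.23 in HIPK2 and 6.95 to 9.27 in HIPK3. Intervals per list ranged over 15 to 16, 22.5 to 23.5 and 15 to 18.5, and regions in both remaining lists over 9 to 10, 15 to 18 and 15 to 15. The percent of intervals in the 3' UTR ranged over 17.9 to 39.7, 35.7 to 43.4 and 6.67 to 10.2, and the median 3' UTR position over 46.6 to 56.8%, 50.1 to 60.01% and 51.4 to 54.5%. Peak lists hold only what passed the caller, so a place without a summit is not shown to be unbound, and a list's length can depend on its unknown depth.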
